A study of Mus musculus with 6 samples.

Results

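Histone genes encode the proteins around which DNA is wound, and 34 of the 19929 genes with a probe of their own on the array were histone genes. They were taken by symbol, as every gene whose probe carries a single symbol beginning H1f, H2ac, H2bc, H2az, H2ax, H3c, H3f or H4c followed by a digit or nothing. Where a gene had more than 1 probe, the one with the highest mean over the 6 arrays was kept. This gave 8 H1 genes, 4 H2A genes, 9 H2B genes, 3 H3 genes, 6 H4 genes and 4 genes of variant histones (H2ax, H2az1, H2az2 and H3f3a). In the RefSeq annotation 23 of the 34 lie on chromosome 13, which holds the main histone cluster of the mouse, 5 on chromosome 3 and the other 6 elsewhere.

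Expression was measured on single-colour Affymetrix arrays in T cells sorted from pancreas for CD8 and for binding of the MimA2 tetramer on H-2Db, the reagent that marks the AI4 antigen receptor. One group of 3 arrays held AI4 T cells from Rip-B7xAI4 mice, which carry the AI4 receptor and the Rip-B7x transgene and were resistant to type 1 diabetes (T1D). The other 3 arrays held AI4 T cells from AI4 mice, which carry the receptor without the transgene and developed T1D. Both were on the C57BL/6.H2g7/g7 background, and the age of the mice is not given in the sources used here. Rip-B7x places B7x, an inhibitory ligand, under control of the rat insulin promoter, which is active in beta cells and not in T cells. The transgene and freedom from disease go together in this design and cannot be told apart. Cell suspensions of pancreata were pooled, with the number of mice per pool not given in the sources used here. Arrays are labelled as biological replicates, and p-values measure the spread between these 3 and 3 arrays.

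Each nucleosome holds a core of H2A, H2B, H3 and H4, and H1 binds the linker DNA at its edge. Most of these proteins come from clustered, intronless genes that are transcribed during DNA replication and whose mRNAs end in a stem loop bound by Slbp in place of a poly(A) tail. Variant histones such as H2A.Z and H3.3 come from genes with polyadenylated mRNAs that are used throughout the cell cycle. T cells divide fast once activated by antigen. The copies of the clustered genes are so alike that probes for different copies can take up each other's transcripts, so every value of a clustered gene is uncertain as to which copy it reports.

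The tested members of the H2A, H2B, H4 and variant classes had values in Rip-B7xAI4 that lay mostly above those in AI4, while most H1 genes did not. No histone gene passed an adjusted p of 0.05 in limma, so none is called as changed. That was 0 of 26 tested members, against 0.00717% of all 13950 genes tested (1 gene, which is no histone). Without adjustment, 10 of the 26 had p under 0.05 with a higher value in Rip-B7xAI4, against 5.56% of all genes, and 0 of the 26 with a lower value, against 3.17%. At an unadjusted p of 0.01 the count of higher members was 4, against 1.67% of all genes. For 8 of the 26 the lowest Rip-B7xAI4 array exceeded the highest AI4 array, against 5.99% of all genes, and for 3 every Rip-B7xAI4 array was below every AI4 array, against 11.9%. The difference was above 0 for 20 of the 26, against 39% of all genes, and below 0 for 6, against 61%. The median difference (Rip-B7xAI4 minus AI4) over the 26 was 0.58 on the log2 scale, while that of all genes tested was -0.10.

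The other 8 members had a mean over the arrays at or under the limit of 5.471 log2 that leaves out the dimmest 30% of genes. Just inside it stood H2bc4 and H1f8, both with a mean of 5.56, and just outside stood H2bc1 with 5.39 and H2bc18 with 5.29. H2bc4 and H2bc8, whose AI4 means of 4.22 and 5.22 lay under the limit, passed it through their Rip-B7xAI4 values, so counts over the 26 describe them and are no support for a difference. With no limit, 10 of all 34 members had an unadjusted limma p under 0.05 and were higher, against 4.4% of all genes. The median difference was then 0.28. The count among tested members was 5 when Rip-B7xAI4 replicate 2 was left out, 6 when AI4 replicate 3 was, and 4 when the dimmest 50% of genes were left out. That last filter took away H2bc3, H2bc4 and H2bc8, which were counted as higher under the 30% limit. Shares of all genes were not computed for these settings, so these counts stand without a background. With arrays weighted by their spread, 2 members passed an adjusted p of 0.05 in limma, H2ac15 (adjusted p = 0.0393, with a range of 0.0393 to 0.566 over all alternatives) and H2bc4 (adjusted p = 0.0462, with a range of 0.0462 to 0.538), against 0.272% of all genes in that fit. Of these, H2bc4 was tested only through its Rip-B7xAI4 values. RNA from many cells was measured together, so a larger share of cells that use a gene cannot be told apart from more of its RNA per cell.

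**Figure D1:**
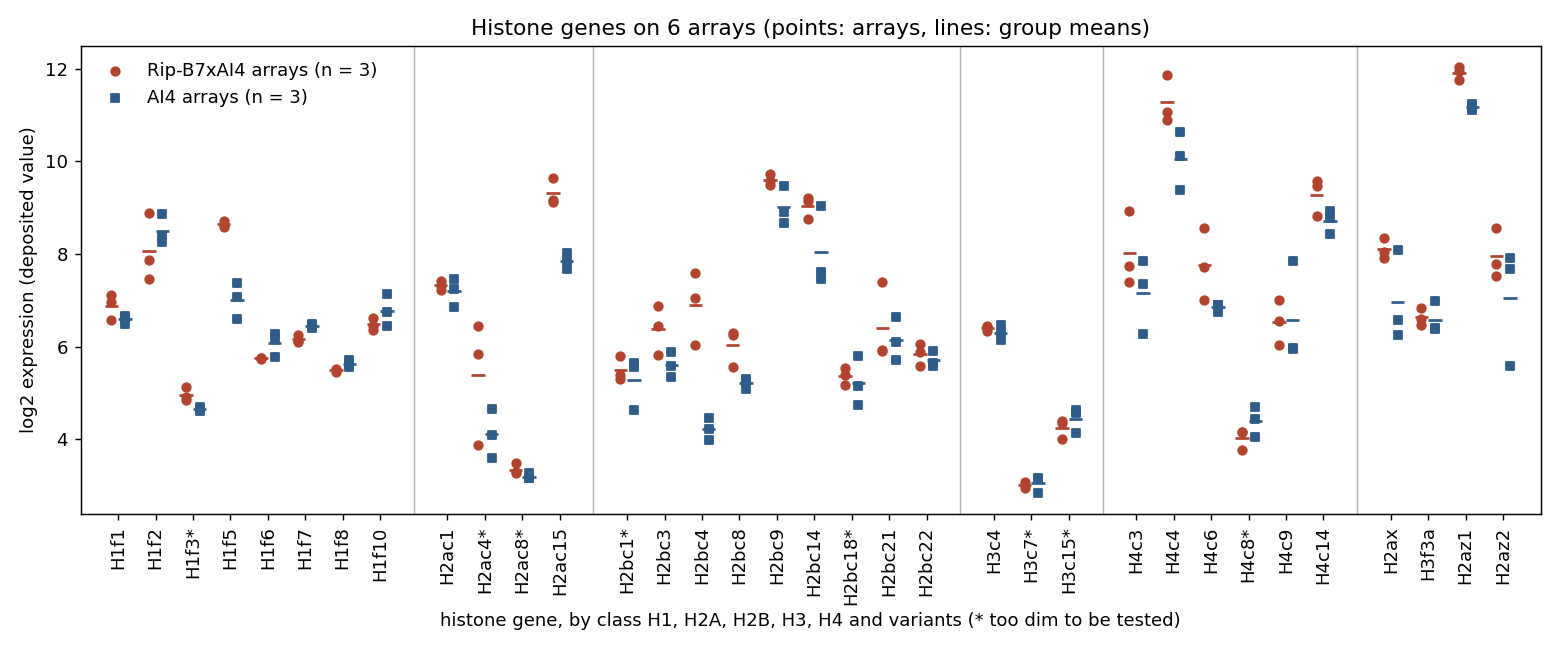
Log2 expression of the 34 histone genes on each array, by class, with 3 Rip-B7xAI4 arrays (circles) left of 3 AI4 arrays (squares) and lines at group means; an asterisk marks the 8 genes too dim to be tested. Levels of different probes cannot be compared with each other; within a gene, the circles of H1f5, H2ac15, H2bc4 and H2az1 lie wholly above the squares.

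Among the linker histones, H1f5 (histone H1.5) stood apart from the other tested members of its class. Its log2 expression was 8.72, 8.62 and 8.58 in Rip-B7xAI4, against 7.06, 7.37 and 6.60 in AI4. The groups did not overlap, and the Rip-B7xAI4 arrays lay closer together than the AI4 arrays. In limma the groups differed by 1.63 ± 0.23 (SE) at an adjusted p = 0.157. The difference ranged from 1.43 to 1.81 over all alternative settings. H1f1 (H1.1), another linker histone of dividing cells, had log2 values of 7.115, 6.96 and 6.58 in Rip-B7xAI4, against 6.48, 6.67 and 6.62 in AI4, and differed by 0.30 ± 0.20 with overlapping groups. H1f2 (H1.2), the linker histone of many resting as well as dividing cells, differed by -0.43 ± 0.39 with overlapping groups. H1f3 (H1.3) was too dim to be tested, with 5.13, 4.91 and 4.85 in Rip-B7xAI4, against 4.66, 4.70 and 4.62 in AI4.

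The germ line linker histones were below their AI4 values by small amounts. H1f6, known from testis, stood at 5.75, 5.76 and 5.73 in Rip-B7xAI4, against 6.27, 6.17 and 5.78 in AI4. H1f7, also of testis, stood at 6.26, 6.11 and 6.12 in Rip-B7xAI4, against 6.48, 6.49 and 6.41 in AI4. These 2 and H1f8, known from the oocyte, are the 3 of the 26 tested members whose Rip-B7xAI4 arrays all lay below the AI4 arrays. That is near the share of all genes, 11.9%. All values of H1f8 and the Rip-B7xAI4 values of H1f6 lay below the medians of their arrays, so these levels may be background. The differences were -0.33 ± 0.19 for H1f6, -0.29 ± 0.15 for H1f7 and -0.14 ± 0.15 for H1f8, with adjusted p of 0.582 or more by limma. The median of all genes tested was -0.10. H1f10, a linker histone made outside replication, differed by -0.30 ± 0.22. The median of the 7 tested H1 genes was -0.29, but -0.12 without AI4 replicate 1 and -0.14 with Rip-B7xAI4 replicate 2 left out.

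Promoter sequence is shown for the H1 gene with the largest difference and for 2 of the same class below 0, from RefSeq (GRCm38.p6), as the 150 bases before the annotated start. Capitals mark matches, on either strand, to the TATA box (searched as TATANA, which can overlap its own reverse complement), the CCAAT box (searched as CCAAT), the octamer of H2B promoters (searched as ATTTGCAT) or the H1 box (searched as AAACACA).
H1f5, chr13:21780626-21780775, minus strand: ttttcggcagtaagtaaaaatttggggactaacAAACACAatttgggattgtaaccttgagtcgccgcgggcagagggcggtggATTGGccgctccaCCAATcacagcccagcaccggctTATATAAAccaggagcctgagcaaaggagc
H1f2, chr13:23738657-23738806, plus strand: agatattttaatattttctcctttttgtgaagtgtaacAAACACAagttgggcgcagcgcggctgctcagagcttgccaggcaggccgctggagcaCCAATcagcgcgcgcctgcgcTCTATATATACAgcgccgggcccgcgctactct
H1f6, chr13:23695661-23695810, plus strand: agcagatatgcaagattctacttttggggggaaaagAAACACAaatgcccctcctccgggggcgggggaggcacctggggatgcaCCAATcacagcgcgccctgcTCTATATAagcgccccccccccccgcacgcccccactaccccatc
All 3 hold the H1 box, the CCAAT box and the TATA box in that order. AAACACA begins 117 bases before the start in H1f5, 112 in H1f2 and 114 in H1f6. CCAAT on the plus strand begins 53, 54 and 65 bases before it in the same genes. Of the 8 H1 genes, 4 hold AAACACA in this window, against 3.53% of all 32851 promoter windows. The 3 genes with these matches differed between the groups by 1.63, -0.43 and -0.33.

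Of the 4 H2A genes, 2 were bright enough to be tested. H2ac15, a clustered H2A gene, stood at 9.13, 9.65 and 9.17 in Rip-B7xAI4, against 8.03, 7.85 and 7.69 in AI4. The lowest Rip-B7xAI4 array was more than 1 log2 unit above the highest AI4 array. H2ac15 differed by 1.46 ± 0.21 (SE), for which limma gave an adjusted p = 0.157. H2ac1, an H2A gene of the testis, stood at 7.23, 7.32 and 7.41 in Rip-B7xAI4, against 7.25, 7.47 and 6.87 in AI4, and differed by 0.13 ± 0.20 with groups that overlapped. It differed by -0.032 without AI4 replicate 3. H2ac4 was too dim to be tested and varied widely, with 6.46, 5.83 and 3.89 in Rip-B7xAI4, against 4.65, 4.09 and 3.60 in AI4. H2ac8, the other untested one, stood at 3.48, 3.26 and 3.28 in Rip-B7xAI4, against 3.26, 3.15 and 3.16 in AI4.

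H2ac15 is shown because it is the H2A gene that differed most, and its window lies between 2 genes that point away from each other, with 164 bases between its start and that of H2bc15.
H2ac15, chr13:21753913-21754062, minus strand: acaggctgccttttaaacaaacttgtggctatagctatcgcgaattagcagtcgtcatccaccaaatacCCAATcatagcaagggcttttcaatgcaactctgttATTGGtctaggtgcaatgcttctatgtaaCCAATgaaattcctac
It holds CCAAT in 3 places and no match to the TATA box, the octamer or the H1 box. CCAAT stood in 79.3% of the 29 member windows that RefSeq gave here and in 24.5% of all windows. H2bc4, H2bc21, H3c7, H4c14 and H2ax had no entry.

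H2bc4, a clustered H2B gene, stood at 7.05, 7.59 and 6.04 in Rip-B7xAI4, against 3.97, 4.23 and 4.47 in AI4. All 3 AI4 values lay below the medians of their arrays, so the AI4 level may be background, and neither a fold nor a rank is given. The groups did not overlap. H2bc8, another gene of the cluster, stood at 6.29, 6.25 and 5.55 in Rip-B7xAI4, against 5.30, 5.26 and 5.09 in AI4. Rip-B7xAI4 replicate 3 was the lowest of its group for H2bc4 and for H2bc8, yet above every AI4 array. H2bc8 differed by 0.81 ± 0.24 (SE), for which limma gave an adjusted p = 0.478, with AI4 values that also lay below the medians of their arrays.

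H2bc3 stood at 6.44, 6.88 and 5.83 in Rip-B7xAI4, against 5.34, 5.88 and 5.59 in AI4, and its groups overlapped. It differed by 0.78 ± 0.30, but all its AI4 values lay below the medians of their arrays. The AI4 level of H2bc3 may thus be background and the size of its difference is uncertain. H2bc9 stood at 9.57, 9.74 and 9.50 in Rip-B7xAI4, against 9.46, 8.92 and 8.66 in AI4. The highest AI4 array, replicate 1, nearly met the lowest Rip-B7xAI4 array, and the difference was 0.59 ± 0.24. H2bc14, H2bc21 and H2bc22 differed by 0.99 ± 0.43, 0.26 ± 0.46 and 0.13 ± 0.20, all with overlapping groups. The 7 tested H2B genes were thus all above 0, against 39% of all genes. Their median was 0.78, but 0.59 with no filter on dim genes and also 0.59 with the dimmest 50% left out. H2bc4 and H2bc8 were tested only through their Rip-B7xAI4 values, so the count and the median are no support for a difference. H2bc1, the H2B gene of testis, and H2bc18 were too dim to be tested, with differences of 0.22 and 0.14 when no limit was set.

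Of 7 H2B windows, 4 hold the octamer ATTTGCAT, as do 3 of 4 H2A windows, against 0.998% of all windows. In the other classes no window holds it. The windows of H2ac8 and H2bc8 overlap, and their octamer is the same run of bases, counted for both genes. The H2A matches lie on the minus strand of their windows and the H2B matches on the plus strand. H2bc8 is shown because it has the octamer and because its start lies 180 bases from that of H2ac8, a member that points the other way.
H2bc8, chr13:23571250-23571399, plus strand: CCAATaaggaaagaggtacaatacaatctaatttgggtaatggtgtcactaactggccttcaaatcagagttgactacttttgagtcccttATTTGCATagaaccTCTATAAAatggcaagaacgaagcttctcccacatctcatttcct
The octamer begins 59 bases before the start and TATANA on the plus strand 43 bases before it.

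H3 could hardly be read from probes of its own. H3c4 alone was bright enough to be tested, with 6.45, 6.42 and 6.33 in Rip-B7xAI4, against 6.47, 6.14 and 6.29 in AI4. Its difference was 0.10 ± 0.17 (SE) and its groups overlapped. H3c7 and H3c15 were too dim to be tested, with differences of -0.038 and -0.19 when no limit was set.

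Of the H4 genes, all of which encode H4 of the nucleosome core, H4c4 had the largest difference. It stood at 11.08, 11.86 and 10.90 in Rip-B7xAI4, against 10.64, 9.37 and 10.12 in AI4. The groups did not overlap, although AI4 replicate 1 came within 0.3 log2 of the lowest Rip-B7xAI4 array. H4c4 differed by 1.23 ± 0.39 (SE), for which limma gave an adjusted p = 0.504. H4c6 stood at 7.72, 8.56 and 6.998 in Rip-B7xAI4, against 6.75, 6.91 and 6.90 in AI4, and differed by 0.91 ± 0.38. Its groups did not overlap either, but the AI4 arrays lay close together and the Rip-B7xAI4 arrays far apart. Without Rip-B7xAI4 replicate 2, the highest array, the H4c6 difference was 0.51.

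H4c14 stood at 8.82, 9.58 and 9.46 in Rip-B7xAI4, against 8.79, 8.44 and 8.92 in AI4, and differed by 0.57 ± 0.26. H4c3 stood at 7.74, 8.94 and 7.39 in Rip-B7xAI4, against 7.86, 6.27 and 7.36 in AI4, and differed by 0.86 ± 0.53, or by 0.40 with Rip-B7xAI4 replicate 2 left out and 0.42 with AI4 replicate 2 left out. In both the groups overlapped. H4c9 differed by -0.0485 ± 0.55, with AI4 replicate 1 at 7.85 and the other AI4 arrays at 5.97 and 5.94. H4c8 was too dim to be tested and differed by -0.36 when no limit was set. The median of the 5 tested H4 genes was 0.86, but 0.42 without Rip-B7xAI4 replicate 2 and 0.43 without AI4 replicate 2.

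The window of H4c4 is shown as that of the H4 gene with the largest difference.
H4c4, chr13:23581418-23581567, plus strand: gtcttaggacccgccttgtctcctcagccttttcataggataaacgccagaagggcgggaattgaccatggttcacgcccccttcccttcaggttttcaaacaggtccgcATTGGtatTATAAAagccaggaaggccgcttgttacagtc
TATANA begins 32 bases before the start. Of 5 H4 windows, 3 hold the TATA box and 2 the CCAAT box, while the TATA box stood in 13.3% of all windows.

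**Figure D2:**
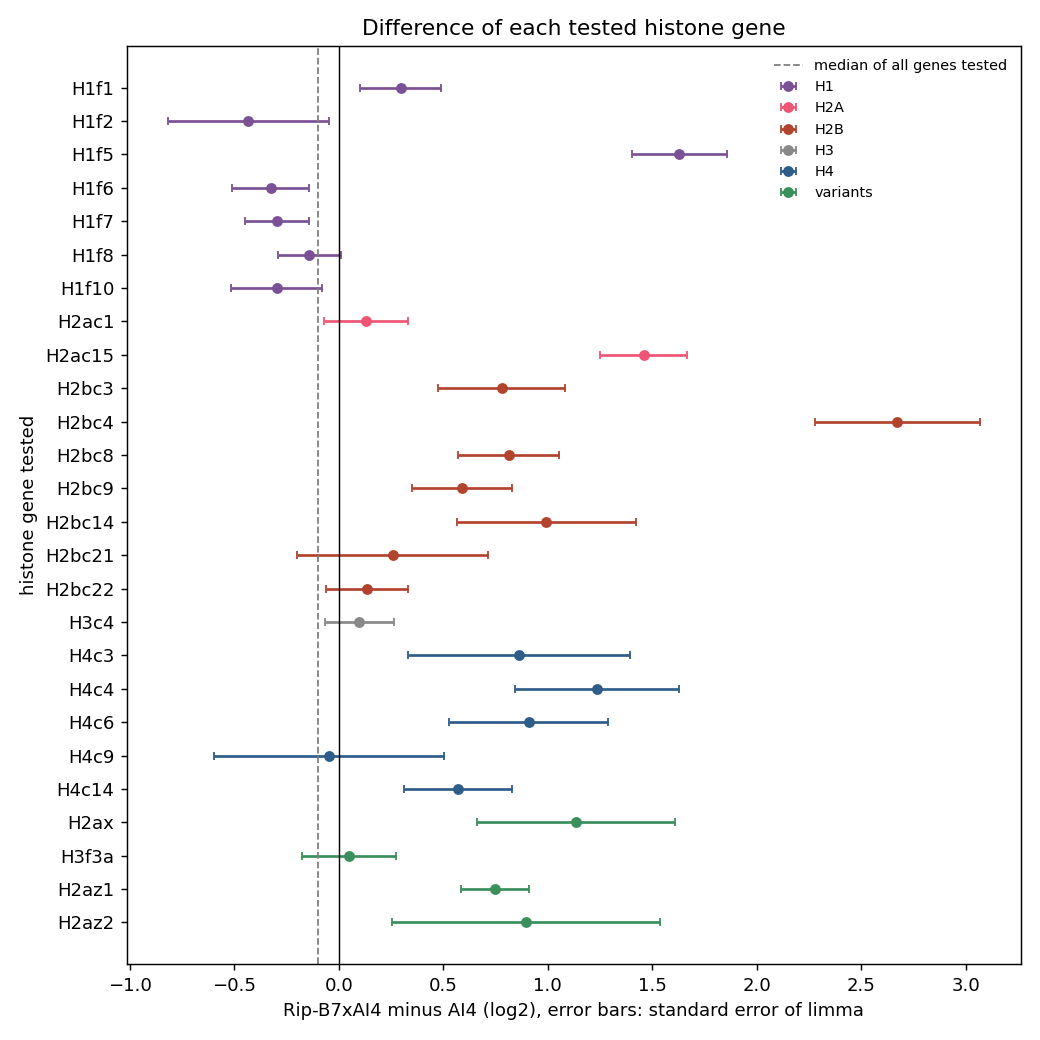
Difference in log2 expression (Rip-B7xAI4 minus AI4) of the 26 tested histone genes, with the standard error of limma, coloured by class; the dashed line is the median of all genes tested, -0.10. All 7 H2B genes lie above 0, against 39% of all genes, and 5 of 7 H1 genes lie below it, against 61%. H2bc4 and H2bc8 were tested only through their Rip-B7xAI4 values, so the H2B count is no support for a difference. The points of H2bc4 and H2bc8 have no measured size and that of H2bc3 an uncertain one, since their AI4 values may be background.

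Of the variant histones, H2az1 had the smallest spread. H2az1 encodes H2A.Z, which sits at promoters. It stood at 12.04, 11.96 and 11.76 in Rip-B7xAI4, against 11.25, 11.11 and 11.16 in AI4. Both groups were tight and lay apart. H2az1 differed by 0.75 ± 0.16 (SE), for which limma gave an adjusted p = 0.299. The value stayed between 0.69 and 0.83 over all alternative settings. A second H2az1 probe, not used for the counts, differed by 0.72 ± 0.15. H2az2, which encodes the second H2A.Z, stood at 7.79, 8.56 and 7.52 in Rip-B7xAI4, against 5.57, 7.68 and 7.92 in AI4. AI4 replicate 1 lay far below the others, and the H2az2 difference of 0.90 ± 0.64 was 0.15 without it.

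H2ax encodes H2A.X, which is phosphorylated around DNA breaks. It stood at 8.34, 7.92 and 8.05 in Rip-B7xAI4, against 8.10, 6.57 and 6.24 in AI4. Here AI4 replicate 1 lay within the Rip-B7xAI4 range and well above the other AI4 arrays. H2ax differed by 1.14 ± 0.47 (SE), for which limma gave an adjusted p = 0.566. The value lay between 0.77 without AI4 replicate 3 and 1.70 without AI4 replicate 1. H3f3a, one of a pair of genes for H3.3, the form of H3 laid down outside replication, stood at 6.47, 6.61 and 6.83 in Rip-B7xAI4, against 6.98, 6.38 and 6.40 in AI4. It differed by 0.05 ± 0.22, and by -0.047, -0.050 and -0.044 when Rip-B7xAI4 replicate 3, then AI4 replicate 2, then AI4 replicate 3 was left out. The median of the 4 variants was 0.82, and 0.52 with AI4 replicate 1 left out.

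The promoter of H2az1 is shown for contrast with the clustered genes.
H2az1, chr3:137864337-137864486, plus strand: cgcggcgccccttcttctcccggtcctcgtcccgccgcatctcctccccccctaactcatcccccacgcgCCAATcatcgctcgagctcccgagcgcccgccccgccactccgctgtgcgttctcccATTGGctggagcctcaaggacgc
It holds CCAAT in 2 places, and none of the 3 variant windows holds the TATA box, the octamer or the H1 box.

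Much of the histone signal on this array lies on probes that the annotation gives to several genes, which the symbol rule leaves out. There were 32 probes of this kind, and 24 of them carry more than 5 symbols of 1 main class. When every probe was tested on its own, each of these 24 had an unadjusted limma p under 0.05 and a higher value in Rip-B7xAI4, against 5.33% of all 19194 probes tested. On each, the lowest Rip-B7xAI4 array exceeded the highest AI4 array, against 6.1% of probes. None passed an adjusted p of 0.05 in limma (lowest 0.453), against 0.00521% of probes. They are not independent of each other, since they take up the same transcripts and 2 pairs of them held identical values.

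The 7 probes shared by H2B genes had median log2 values of 11.12, 11.29 and 10.76 in Rip-B7xAI4, against 10.23, 8.12 and 8.83 in AI4. The AI4 arrays lay more than 2 log2 units apart, with replicate 1 the highest. The differences of these 7 probes ran from 1.61 to 2.05 with standard errors of 0.42 to 0.61. The 10 probes shared by H3 genes had medians of 9.12, 8.84 and 8.08 in Rip-B7xAI4, against 7.83, 7.27 and 7.39 in AI4. Their differences ran from 0.87 to 1.25, while H3c4, the only tested H3 gene with its own probe, differed by 0.10.

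The 5 probes shared by H4 genes had medians of 11.06, 11.43 and 10.62 in Rip-B7xAI4, against 10.31, 9.54 and 10.40 in AI4, and differed by 0.94 to 1.07. The 2 probes shared by H2A genes had medians of 10.55, 10.49 and 10.29 in Rip-B7xAI4, against 9.92, 9.75 and 9.29 in AI4, and differed by 0.77 and 0.80. The 4 probes that H3f3a shares with another symbol had medians of 10.51, 10.62 and 10.28 in Rip-B7xAI4, against 10.64, 10.30 and 10.61 in AI4, and differed by -0.11 to -0.024. The 2 probes of H3f3b differed by -0.0006 and 0.19, with overlapping groups.

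**Figure D3:**
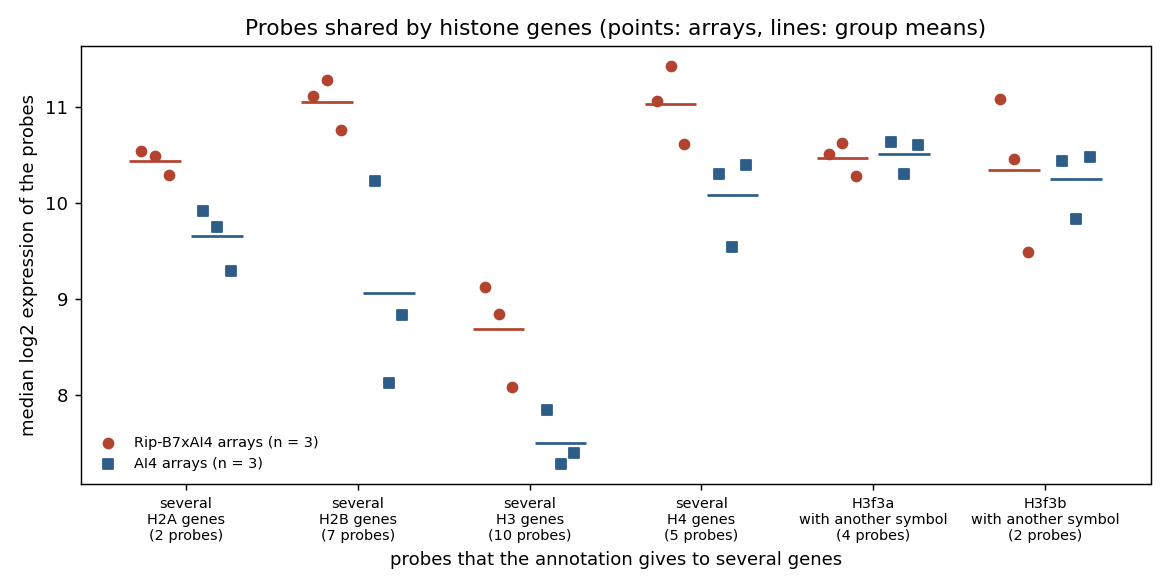
Median log2 expression, on each array, of the probes that the annotation gives to several histone genes, with 3 Rip-B7xAI4 arrays (circles) left of 3 AI4 arrays (squares) and lines at group means. The groups lie apart for H2A, H2B, H3 and H4 and overlap for the H3.3 genes H3f3a and H3f3b.

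Factors that make or carry histones were taken from fixed lists. Of 29 tested factors of histone mRNA, 1 had an unadjusted limma p under 0.05 and was higher, against 5.56% of all genes, 1 was lower, against 3.17%, and the median difference was -0.0033. Slbp, the stem loop binding protein, stood at 9.17, 8.38 and 8.17 in Rip-B7xAI4, against 5.67, 8.09 and 7.53 in AI4. Its groups did not overlap, AI4 replicate 1 was far below the rest, and the Slbp difference was 1.47 ± 0.63 (SE). It was 0.76 without that array and 0.74 with array weights. Cpsf2, a subunit of the complex that cleaves histone mRNA, differed by 1.61 ± 0.59, or by 0.92 with AI4 replicate 2 left out. Ncbp1, of the cap binding complex, differed by 0.65 ± 0.38, or by 0.31 with AI4 replicate 1 left out and 1.03 with AI4 replicate 3 left out. Ccne1 (cyclin E1), which drives entry into S phase, differed by -0.50 ± 0.21. Casp8ap2 (FLASH), needed for histone mRNA processing, differed by 0.0495 ± 0.56, a value that turns negative in 5 alternatives. Npat, the coactivator of clustered histone genes, was too dim to be tested, with 5.63, 5.71 and 5.27 in Rip-B7xAI4, against 4.94, 4.21 and 5.37 in AI4.

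Of 32 tested histone chaperones and exchange factors, 4 had an unadjusted limma p under 0.05 and were higher, against 5.56% of all genes, 0 were lower, against 3.17%, and the median difference was 0.20. Asf1b, the H3-H4 chaperone of dividing cells, stood at 7.87, 7.39 and 7.69 in Rip-B7xAI4, against 6.20, 6.75 and 6.67 in AI4. Its groups lay apart, with a difference of 1.11 ± 0.22 (SE) and an adjusted p = 0.251 by limma. Anp32e, which removes H2A.Z from chromatin, differed by 0.85 ± 0.21, Mcm2 of the replicative helicase by 0.90 ± 0.30 and Rbbp4, a subunit of chromatin assembly factor 1, by 0.70 ± 0.24. Chaf1a, the large subunit of the same factor, differed by 0.72 ± 0.37 and Nasp, which holds free H3-H4, by 0.64 ± 0.36, both with overlapping groups. With Rip-B7xAI4 replicate 1 left out, Chaf1a differed by 0.32, Nasp by 0.37 and Mcm2 by 0.59. Among histone proteins that the symbol rule leaves out, Cenpa, the H3 of centromeres, differed by 0.71 ± 0.30 (0.44 with AI4 replicate 1 left out), H2aj by -0.33 ± 0.27, Macroh2a1 by -0.18 ± 0.34 and H4f16 by 0.29 ± 0.36.

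Genes of DNA replication and of mitosis differed between the groups on the same side as the core histones. The mean log2 value of the 15 tested H2A, H2B, H3 and H4 genes was 7.75, 8.05 and 7.43 in Rip-B7xAI4, against 7.21, 6.81 and 6.91 in AI4. That of 28 S-phase genes, 4 of which (Slbp, Mcm2, Ccne1 and Ccne2) also stand in the lists above, was 8.01, 7.59 and 7.01 in Rip-B7xAI4, against 7.01, 6.55 and 6.58 in AI4. In each set the highest AI4 array was replicate 1 and the lowest Rip-B7xAI4 array replicate 3. For the S-phase genes these 2 arrays met, so that the groups did not lie apart. The core histone mean includes H2bc4 and H2bc8, which were tested only through their Rip-B7xAI4 values. H2bc4 stood at 6.04 on Rip-B7xAI4 replicate 3, against 3.97 on AI4 replicate 1. The distance between the core means is thus no support for a difference. Of the S-phase genes 14 had an unadjusted limma p under 0.05 and were higher, against 5.56% of all genes, and 1 was lower, against 3.17%. Those with the smallest p were Rfc4, a clamp loader subunit (1.12 ± 0.26, SE), Lig1, the replicative DNA ligase (1.12 ± 0.28), Rfc3 (1.48 ± 0.40) and Pcna, the sliding clamp (0.83 ± 0.24). The mean of 15 mitosis genes was 8.51, 7.94 and 7.39 in Rip-B7xAI4, against 6.77, 5.65 and 5.73 in AI4. Of these 15 genes 12 had an unadjusted limma p under 0.05 and were higher, against 5.56% of all genes, and 0 were lower, against 3.17%. In the limma fit used for these counts, none of the S-phase or mitosis genes passed an adjusted p of 0.05 (lowest 0.353 and 0.145). With array weights, the mitosis genes Birc5, Kif11, Knl1 and Prc1 passed it, each at an adjusted limma p of 0.0393. The S-phase gene Rfc4, with an AI4 mean of 5.06, was tested only through its Rip-B7xAI4 values. The place of Rfc4 by p and its difference are thus no support for a change. The mitosis genes Knl1 and Prc1, with AI4 means of 5.09 and 5.13, were also tested only through their Rip-B7xAI4 values. Counts over both sets describe them and are no support for a difference. The part of replication and mitosis in the histone values was not tested.

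Markers of other cells also differed between arrays. Of 14 myeloid markers 13 were bright enough to be tested, and all 13 had a positive difference. Their mean was 9.20, 6.22 and 8.81 in Rip-B7xAI4, against 6.67, 6.01 and 6.44 in AI4. One of them, Clec7a, with an AI4 mean of 5.45, was tested only through its Rip-B7xAI4 values. The count of 13 thus describes the markers and is no support for a difference. With Rip-B7xAI4 replicates 1 and 3 both left out, the median difference of the tested histone members was 0.76 and that of all genes tested was -0.09. That fit takes the spread of the single Rip-B7xAI4 array from the AI4 arrays. The 8 tested CD8 T cell markers averaged 10.20, 10.43 and 9.85 in Rip-B7xAI4, against 9.75, 10.42 and 10.33 in AI4. They did not all lie on 1 side, since Cd8b1 differed by -1.001 ± 0.39 (SE, the 1 member lower at an unadjusted limma p under 0.05), Cd8a by -0.69 ± 0.35 and Cd3e by 0.88 ± 0.42. The 5 tested B cell markers, of 8 listed, averaged 6.80, 5.79 and 6.90 in Rip-B7xAI4, against 6.28, 5.87 and 6.44 in AI4. Their mean was highest on Rip-B7xAI4 replicates 1 and 3, as the myeloid mean was. Single B cell markers did not all follow, since Cd79a was highest on AI4 replicate 3, at 7.46. Beta cell and acinar marker means lay between 5.57 and 6.19 in Rip-B7xAI4, against 5.93 and 6.24 in AI4. The part of other cell types in the histone values was not tested.

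**Figure D4:**
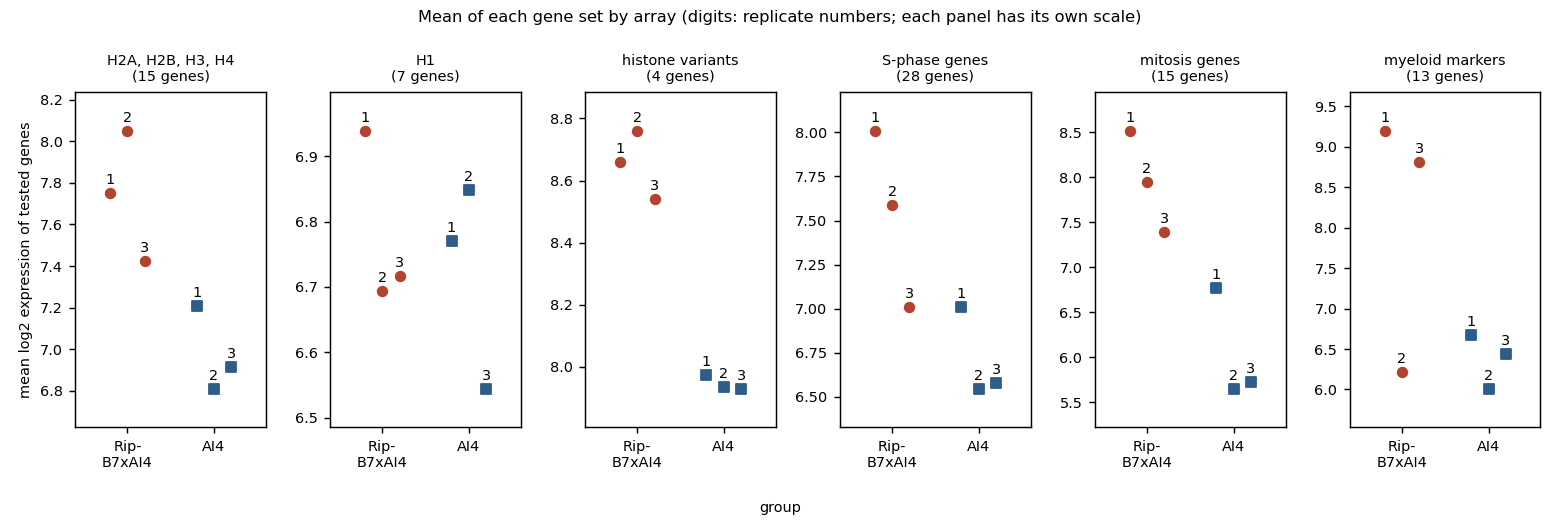
Mean log2 expression of the tested genes of each set on each array, with 3 Rip-B7xAI4 arrays (circles) left of 3 AI4 arrays (squares), replicate numbers beside the points and a scale of its own for each panel. Core histones, variants and mitosis genes lie apart between the groups, S-phase genes meet at 7.01 and H1 genes overlap. Myeloid markers are high on Rip-B7xAI4 replicates 1 and 3 only. The core, S-phase, mitosis and myeloid means include genes tested only through their Rip-B7xAI4 values, so their distances are no support for a difference.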

How the data were processed

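The deposited log2 values, 1 for each probe on each array, were normalized by the authors with Affymetrix Expression Console per the submitters' processing notes. The algorithm is not given in the sources used here, and the scale was judged from the range of the values. Array medians lay between 5.94 and 6.10. Probes were named through the platform annotation (21760 with 1 symbol, 1621 with several, 4944 with none), and all 34 histone genes matched RefSeq by gene ID. Tests covered 13950 genes, after the dimmest 30% by mean were set aside. A group term was fitted to each gene by limma 3.58.1 under R 4.3.3 (lmFit, then eBayes), two-sided, with Benjamini-Hochberg adjustment over all genes tested. The fit was tested on simulated data. The members and lists were chosen with earlier results of these data known. Values on every array are given for up to 4 tested members per class by smallest p and for all variants; lists are named by up to 4 genes of smallest p and a few fixed ones, and other members were named to account for all. Alternatives were a replicate block, arrays left out, quantile normalization, median centring, other filters, probe means, eBayes settings and array weights, and, added after seeing the data, every probe tested on its own. The values turned out to be log2, so a planned pseudocount did not apply. The number of arrays limits the precision. The labels give no batch.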

Additional observations from a re-analysis of the deposited data

How the results depend on the processing

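Over 16 alternatives (15 for H1f6, H2bc3, H2bc4 and H2bc8, which the 50% filter leaves out), the 19 histone members given in full kept the side of 0 of their difference except H2ac1 (-0.032 without AI4 replicate 3, and up to 0.27 without AI4 replicate 2) and H3f3a (-0.050 with AI4 replicate 2 left out, up to 0.25 with AI4 replicate 1 left out, and below 0 also without AI4 replicate 3 or Rip-B7xAI4 replicate 3), and 0 passed an adjusted p of 0.05 except H2ac15 and H2bc4 with array weights. Leaving out 1 array at a time, the members with unadjusted limma p under 0.05 were 5 to 9 higher and 0 to 1 lower, all genes past the adjusted limit 0 to 22, and the class medians -0.32 to -0.12 for H1, 0.67 to 0.86 for H2A, 0.53 to 1.05 for H2B, 0.017 to 0.19 for H3, 0.42 to 1.18 for H4 and 0.52 to 0.97 for variants. With array weights 2 members and 38 genes (0.272% of all genes) passed. At an unadjusted limma p under 0.05 in that fit, 13 members were higher and 3 lower. With Rip-B7xAI4 replicates 1 and 3 both left out, the medians were 0.76 for all members and 1.71 for H4. After quantile normalization the medians were 0.34 for members and 0.74 for variants. With no filter they were 0.28 for members and -0.038 for H3, and with the 50% filter 4 members were higher. Shares of all genes at an unadjusted p under 0.05 were not computed with arrays left out, array weights, the 50% filter or the replicate block. Of the listed partners, Casp8ap2 lay between -0.35 and 0.68 with 1 array left out (below 0 without Rip-B7xAI4 replicate 1, AI4 replicate 2 or AI4 replicate 3), at -0.18 without Rip-B7xAI4 replicates 1 and 3 and at -0.12 after quantile normalization, and Macroh2a1 between -0.45 and 0.10 with 1 array left out (above 0 without AI4 replicate 1) and at 0.026 with array weights. The cause was not tested. Same-numbered arrays did not deviate together (r of -0.082, 0.056 and -0.22 across genes). No sign of pairing by number was thus seen, although 3 arrays per group cannot exclude it. With the replicate block 0 genes passed and 10 members were higher at an unadjusted limma p under 0.05.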
